A study of Mus musculus with 12 samples.

Results

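The genes described here are 10 members of the BCL-2 family, the proteins that decide whether the mitochondria of a cell release the signal to die. They were taken as a list of names (Bcl2, Bcl2l1, Mcl1, Bcl2a1b, Bax, Bak1, Bcl2l11, Bbc3, Pmaip1 and Bid), so no measured value of these libraries is part of the rule. All 10 were among the 56980 genes of the count table, and all 10 passed the filter on low counts, which 20411 genes passed. RNA was sequenced in bulk from CD8+ T cells that had entered tumours of wild-type C57BL/6J mice, and the design set cells with the glycolipid asialo-GM1 (asGM1) on their surface against cells without it, in each of 2 tumour types. The groups were asGM1+ cells from Flt3L Panc02 tumours, asGM1- cells from Flt3L Panc02 tumours, asGM1+ cells from Panc02 tumours and asGM1- cells from Panc02 tumours, with 3 libraries in each. Panc02 is a mouse pancreatic cancer cell line, and Flt3L Panc02 is that line with added expression of the dendritic cell growth factor Flt3L. All groups were sorted as DAPI- CD45.2+ CD8+ cells, with no T cell receptor marker named. The sources used here do not state how Flt3L expression was driven, whether that line is 1 clone, or how old the mice were. Nothing in the labels ties a library to a separate mouse, so p-values measure the spread between these libraries, which may be technical.

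Proteins of this family fall into opposed classes. BCL-2, BCL-XL (gene Bcl2l1), MCL-1 and A1 (gene Bcl2a1b and its copies) hold death back by binding the other members. BAX and BAK (gene Bak1) open the outer mitochondrial membrane, and the BH3-only proteins BIM (gene Bcl2l11), PUMA (gene Bbc3), NOXA (gene Pmaip1) and BID start that step. In T cells, interleukin 7 is known to keep BCL-2 up in resting and memory cells, BCL-XL and A1 are known to follow activation, and BIM is known for the removal of activated cells when a response ends.

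Library totals were 98663008 to 102896605 counts. Levels are given as CPM, the counts scaled to a fixed total on TMM-scaled library sizes, and 1 sequenced fragment was estimated to be worth 2.69 counts, so a floor of 3 fragments is at most 0.0894 CPM. Cd8a, the CD8 alpha chain, stood at 1569 to 2562 CPM over the 12 libraries and Cd3e, a chain of the CD3 complex, at 614 to 1412 CPM. None of 14 T cell markers was at 0 in any library. Across genes, the rank correlation of any 2 libraries was at least 0.942. Macrophage and monocyte markers (12 genes, none at 0) summed to 644 to 874 CPM in Flt3L Panc02 asGM1+, 333 to 574 in Flt3L Panc02 asGM1-, 845 to 3240 in Panc02 asGM1+ and 733 to 1250 CPM in Panc02 asGM1- libraries. In each Panc02 group the library numbered 1 was the highest in this sum. Every test of the 10 genes that involved Panc02 groups was therefore also computed without both of these, and is given that way wherever a call ended. The test of the gate in Flt3L Panc02 tumours was not computed that way.

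Across the 4 groups the genes kept a similar order of levels per kilobase of exon. The order between genes depends on the lengths used, which join all annotated exons of a gene (817 bases for Bcl2a1b and 9157 for Bcl2). Which transcripts the cells made was not looked at. Per kilobase of exon, Bcl2a1b was highest, at 328 ± 56.2, 240.2 ± 59.6, 262 ± 26.5 and 292 ± 60.8 CPM per kilobase (SD, n = 3 each) in Flt3L Panc02 asGM1+, Flt3L Panc02 asGM1-, Panc02 asGM1+ and Panc02 asGM1- cells. Bax came next, at group means of 102 to 123 CPM per kilobase, and Mcl1 after it, at 47.5 to 59.0. Bcl2l1, Bid, Bcl2l11 and Bcl2 followed at 8.95 to 19.9 CPM per kilobase. In every group the ranges of mean ± SD of some neighbours among these 4 overlapped, such as those of Bid at 19.9 ± 2.68 and Bcl2l1 at 18.9 ± 3.01 CPM per kilobase in Panc02 asGM1+ cells. Bcl2 and Bcl2l1 were the genes whose places moved most. Bcl2 was the fourth highest of the 10 in Flt3L Panc02 asGM1- cells, at 19.7 ± 2.83 CPM per kilobase, and the seventh in each of the other groups, at 8.95 ± 0.929 in Flt3L Panc02 asGM1+, 11.4 ± 0.388 in Panc02 asGM1+ and 11.1 ± 1.02 in Panc02 asGM1- cells. Bcl2l1 was the fourth in Panc02 asGM1- cells, at 19.7 ± 0.782 CPM per kilobase, and the seventh in Flt3L Panc02 asGM1- cells, at 13.6 ± 0.872. Pmaip1, Bbc3 and Bak1 were lowest, with Pmaip1 at group means of 5.56 to 6.27, Bbc3 at 1.39 to 3.91 and Bak1 at 0.867 to 1.48 CPM per kilobase.

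**Figure D1:**
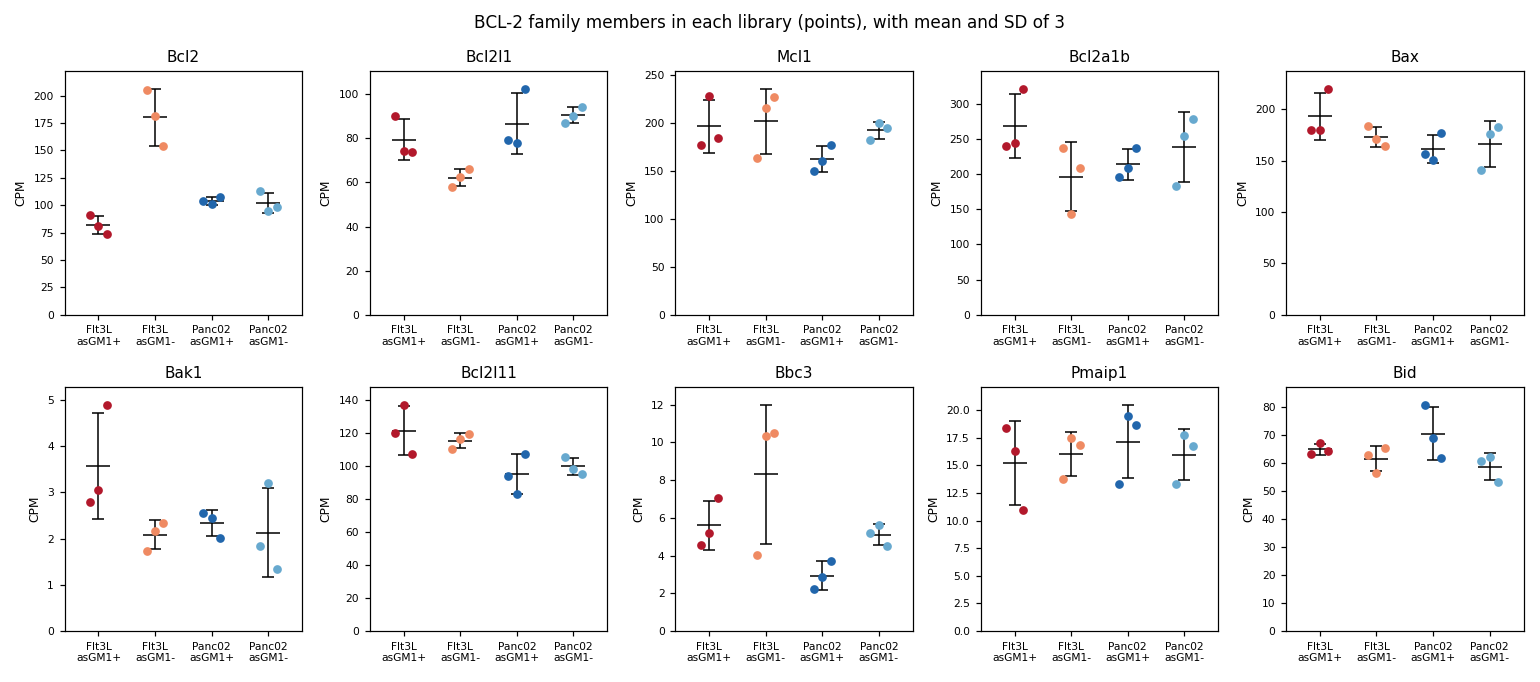
Levels of the 10 genes in CPM (vertical axes, linear from 0) in the 12 libraries (points), by group, with the mean and SD of 3 (bars). Bcl2 in Flt3L Panc02 asGM1- cells, at 154 to 205 CPM, lies above every other library, while Mcl1, Bid and Pmaip1 overlap across most groups.

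Few of the 10 genes passed the test in any comparison. A gene was called where edgeR (quasi-likelihood) gave an adjusted p under 0.05, adjusted after Benjamini and Hochberg over the 20411 genes. Between asGM1+ and asGM1- cells of Flt3L Panc02 tumours 1 of 10 was called, Bcl2, where 8.59% of all genes were called. Between asGM1+ and asGM1- cells of Panc02 tumours 0 of 10 were called by edgeR, where 0.892% of all genes were, while 2 had an unadjusted p under 0.05 and DESeq2 and limma-voom called 0. Between Flt3L Panc02 and Panc02 tumours, 2 of 10 were called in asGM1- cells (Bcl2 higher and Bcl2l1 lower), where 3.7% of all genes were. In asGM1+ cells 0 of 10 were called between the tumour types by edgeR, where 6.25% of all genes were, while 3 had an unadjusted p under 0.05, DESeq2 called 2 (Bcl2l11 and Bbc3) and limma-voom 1 (Bcl2l11). The difference between the gate effects of the tumour types was called for 1 of 10, Bcl2, where it was called for 0.367% of all genes. The median log2 fold change of the 10 genes was 0.08 for the gate in Flt3L Panc02 tumours, against -0.01 over all genes tested, and -0.05 for the gate in Panc02 tumours, against 0.02 over all genes. For Flt3L Panc02 over Panc02 tumours it was 0.27 in asGM1+ cells, against -0.03 over all genes, and 0.06 in asGM1- cells, against 0.00 over all genes. These comparisons share groups, so their values are not independent.

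**Figure D2:**
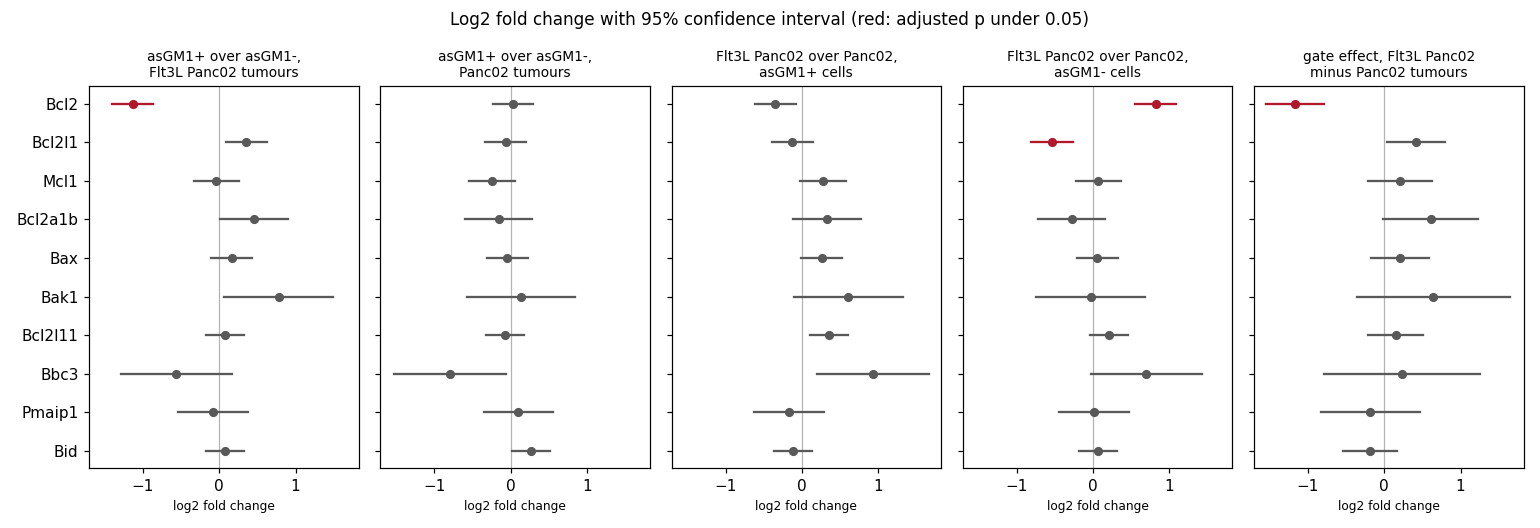
Log2 fold changes (horizontal axes) of the 10 genes with 95% confidence intervals in the 4 comparisons and in the difference of the gate effects, with calls in red. Bcl2 is at -1.14 for the gate in Flt3L Panc02 tumours and at 0.03 for the gate in Panc02 tumours, and most other intervals cross 0.

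Bcl2, which encodes the founding survival protein of the family, was lower in asGM1+ than in asGM1- cells of Flt3L Panc02 tumours and did not show this in Panc02 tumours. It stood at 90.7, 81.4 and 73.7 CPM in Flt3L Panc02 asGM1+ libraries, against 205, 182 and 154 CPM in Flt3L Panc02 asGM1- libraries. In Panc02 tumours it stood at 104, 101 and 108 CPM in asGM1+ libraries and at 113, 95.05 and 98.2 CPM in asGM1- libraries. The Flt3L Panc02 asGM1- libraries were thus the 3 highest of the 12 and the Flt3L Panc02 asGM1+ libraries the 3 lowest, while the Panc02 groups lay between them and overlapped each other. For the gate in Flt3L Panc02 tumours the log2 fold change was -1.14 ± 0.12 (SE; 95% confidence interval -1.41 to -0.87; edgeR adjusted p = 0.000394). Bcl2 ranked 53 by p of the 20411 tested there, and its call held in all 15 other settings and left-out libraries, with log2 fold changes between -1.24 and -0.98. For the gate in Panc02 tumours it was 0.03 ± 0.12 (95% confidence interval -0.24 to 0.30; edgeR adjusted p = 0.986).

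The difference between those gate effects was -1.17 ± 0.17 on the log2 scale (SE; 95% confidence interval -1.55 to -0.79; edgeR adjusted p = 0.0238). Leaving out single libraries ended this call in 7 of 12 runs: Flt3L Panc02 asGM1- replicate 1 (adjusted p = 0.0538) and replicate 2 (0.0705), Flt3L Panc02 asGM1+ replicate 2 (0.0609) and replicate 3 (0.0538), Panc02 asGM1- replicate 2 (0.0985) and replicate 3 (0.0853), and Panc02 asGM1+ replicate 2 (0.0703). It also ended without both Panc02 libraries numbered 1 (edgeR adjusted p = 0.0634), and the difference itself stayed between -1.27 and -1.04 in all 21 runs. Between tumour types, Bcl2 was higher in Flt3L Panc02 than in Panc02 tumours among asGM1- cells, by a log2 fold change of 0.82 ± 0.12 (SE; edgeR adjusted p = 0.00787), a call that ended without Panc02 asGM1- replicate 2 (adjusted p = 0.0517). Among asGM1+ cells it was -0.35 ± 0.12 (95% confidence interval -0.61 to -0.08), with groups that did not overlap, and did not pass (edgeR adjusted p = 0.109).

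The promoter window of Bcl2 is shown because Bcl2 is the gene on which most of these results turn, and that of Bcl2l11 because Foxo1 and Foxo3, whose proteins are known to bind the FOXO letters in it, are among the genes described below. Both are from RefSeq (build GRCm38.p6, while the counts were made on mm39), running from 250 bases before to 50 after the gene's start, 5′ to 3′ on the gene's strand. The windows are at chr1:106714241-106714540 on the minus strand and chr2:128125788-128126087 on the plus strand. Capitals mark the letters TGACGT, the core of a cyclic AMP response element, in Bcl2 and the FOXO letters GTAAACA in Bcl2l11, each searched on both strands.
Bcl2: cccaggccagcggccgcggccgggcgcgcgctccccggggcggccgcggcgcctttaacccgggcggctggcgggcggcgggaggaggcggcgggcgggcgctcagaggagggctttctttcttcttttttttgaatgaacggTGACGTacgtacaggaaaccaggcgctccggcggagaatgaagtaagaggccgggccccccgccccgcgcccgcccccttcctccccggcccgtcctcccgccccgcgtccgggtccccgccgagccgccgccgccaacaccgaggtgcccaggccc
Bcl2l11: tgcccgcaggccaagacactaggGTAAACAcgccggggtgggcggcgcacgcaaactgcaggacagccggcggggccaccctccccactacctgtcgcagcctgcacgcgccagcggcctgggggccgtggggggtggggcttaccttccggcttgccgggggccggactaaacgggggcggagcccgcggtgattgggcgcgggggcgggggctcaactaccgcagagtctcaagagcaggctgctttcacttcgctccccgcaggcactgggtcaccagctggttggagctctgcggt
Of 14 windows for 9 of the 10 genes (Pmaip1 is named only), TGACGT was in 1 gene's window, Bcl2, and in 7.51% of all 32851 windows. GTAAACA was in windows of 2 genes, Bcl2l11 and Bbc3, and in 3.65% of all windows. The STAT letters TTCNNNGAA were in 0 of the 14 windows and in 8.30% of all, and the TCF letters CTTTGA were in windows of 2 genes, Bax and Bcl2a1b, and in 16.003% of all. No motif searched contains another. These are matches of letters in short windows and say nothing about binding in these cells.

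Other RNAs moved with Bcl2 over the libraries. Over the 12 libraries, which fall into 4 groups, the named genes whose log2 CPM followed that of Bcl2 most closely were Eldr (Pearson r = 0.982), Kcnq1ot1 (r = 0.965) and Snhg15 (r = 0.959), all 3 long noncoding RNAs. Genes known only by a gene model or clone name were left out of this ranking. Kcnq1ot1, a nuclear RNA of an imprinted locus, stood at 7.70, 8.68 and 7.49 CPM in Flt3L Panc02 asGM1+ libraries, against 22.6, 21.8 and 17.3 CPM in Flt3L Panc02 asGM1- libraries. In Panc02 tumours it stood at 11.6, 11.4 and 10.5 CPM in asGM1+ libraries and at 10.97, 7.77 and 8.99 CPM in asGM1- libraries. Its log2 fold change for the gate was -1.37 in Flt3L Panc02 and 0.27 in Panc02 tumours. Malat1 and Neat1, nuclear RNAs looked up after the values of Kcnq1ot1 were seen, stood at -1.15 and -1.20 for the gate in Flt3L Panc02 tumours. All of these RNAs were chosen on their values in these libraries, so their fold changes are a description and are given without a test. The class of long noncoding RNA was looked at only after values in these libraries were seen, so its counts are a description too. Of 2082 long noncoding RNA genes tested for the gate in Flt3L Panc02 tumours, 12 were called higher and 135 lower in asGM1+ cells. Of all 20411 genes, 565 were called higher and 1189 lower. The median log2 fold change was -0.50 for long noncoding RNA, against -0.01 over all genes. As a share of counts, long noncoding RNA overlapped between these groups, at 0.689% to 0.814% in asGM1+ and 0.785% to 0.887% in asGM1- libraries. In Panc02 tumours Malat1 stood at 695, 485 and 301 CPM in asGM1+ and 268, 217 and 291 CPM in asGM1- libraries, with its highest value in asGM1+ replicate 1, which was also the highest in macrophage markers. The part of nuclear RNA in the Bcl2 result was not tested.

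Transcripts of plasmacytoid dendritic cells moved with the gate as well. Siglech, a surface receptor of those cells, stood at 4.56, 2.33 and 1.60 CPM in Flt3L Panc02 asGM1+ libraries, against 289.9, 262 and 253 CPM in Flt3L Panc02 asGM1- libraries. In Panc02 tumours it stood at 1.75, 3.10 and 0.0901 CPM in asGM1+ libraries, against 70.1, 40.4 and 43.0 CPM in asGM1- libraries. Summed, 12 markers of these cells stood at 818 to 941 CPM in Flt3L Panc02 asGM1+, 1724 to 1882 in Flt3L Panc02 asGM1-, 759 to 905 in Panc02 asGM1+ and 1035 to 1140 CPM in Panc02 asGM1- libraries, with Spib and Cox6a2 at 0 in Panc02 asGM1+ replicate 3 and none at 0 elsewhere. By edgeR, 8 of the 12 were lower in asGM1+ cells in each tumour type, with a median log2 fold change of the 12 of -4.52 in Flt3L Panc02 and -3.26 in Panc02 tumours. Of all genes, edgeR called 8.59% for the gate in Flt3L Panc02 and 0.892% in Panc02 tumours. Conventional dendritic cell markers (8 genes) summed to 16.2 to 23.9 CPM in Flt3L Panc02 asGM1+, 68.9 to 86.5 in Flt3L Panc02 asGM1-, 16.4 to 43.2 in Panc02 asGM1+ and 31.9 to 53.8 CPM in Panc02 asGM1- libraries, with Cd209a at 0 in Panc02 asGM1+ replicate 3. Of these 8, edgeR called 5 lower in asGM1+ cells of Flt3L Panc02 and 0 in Panc02 tumours. Markers of B and plasma cells (8 genes) summed to 11.6 to 14.3 CPM in Flt3L Panc02 asGM1+, 39.8 to 53.7 in Flt3L Panc02 asGM1-, 6.69 to 15.8 in Panc02 asGM1+ and 17.3 to 22.3 CPM in Panc02 asGM1- libraries. Of the 5 tested, edgeR called 2 lower in asGM1+ cells of Flt3L Panc02 and 1 in Panc02 tumours. Pax5, the transcription factor that defines B cells, was at 0 in every library but Panc02 asGM1- replicate 3. Those of CD4 and regulatory T cells (6 genes) summed to 308 to 337 CPM in Flt3L Panc02 asGM1+, 395 to 408 in Flt3L Panc02 asGM1-, 231 to 280 in Panc02 asGM1+ and 395 to 468 CPM in Panc02 asGM1- libraries, with none at 0. Of these 6, edgeR called 4 lower in asGM1+ cells in each tumour type. The median log2 fold change of the 6 was -1.25 in Flt3L Panc02 and -0.89 in Panc02 tumours. Markers of T cells (14 genes) summed to 16008 to 21556 CPM in Flt3L Panc02 asGM1+ and 13472.5 to 15093.5 CPM in Flt3L Panc02 asGM1- libraries. By edgeR, 2 of these were higher and 0 lower in asGM1+ cells there. Markers of NK cells (6 genes) summed to 555 to 699 CPM in Flt3L Panc02 asGM1+ and 372 to 486 CPM in Flt3L Panc02 asGM1- libraries. Of these, 1 was called higher and 1 lower. In Panc02 tumours the sums of both sets overlapped between the gates, and 0 of their genes were called. The part of these cell types in the results on the 10 genes was not tested, and in bulk RNA fewer cells of a type cannot be told apart from less RNA per cell.

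**Figure D3:**
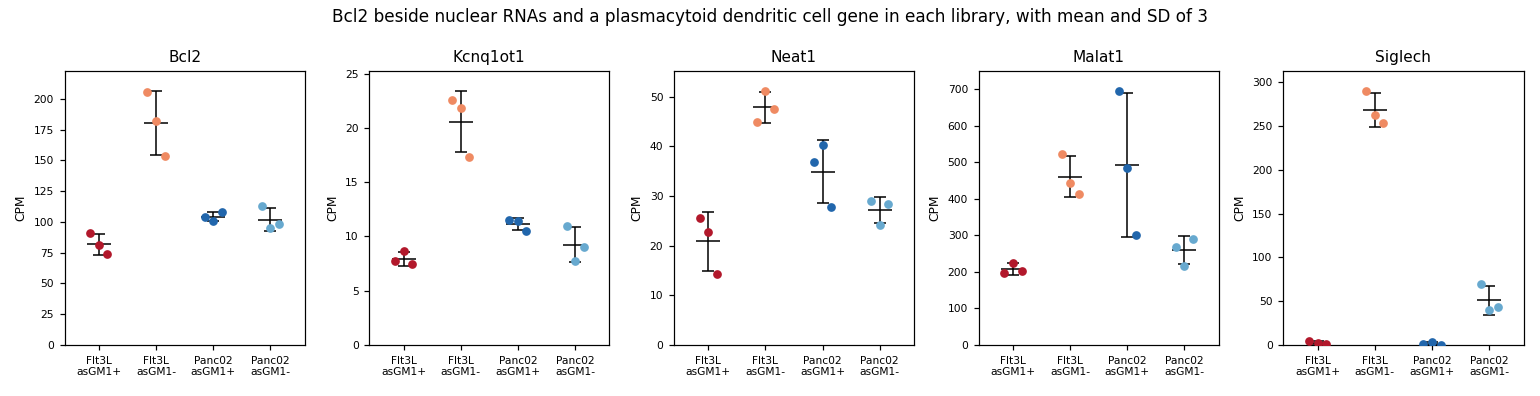
CPM (vertical axes, linear from 0) of Bcl2, the nuclear RNAs Kcnq1ot1, Neat1 and Malat1, and Siglech in the 12 libraries (points), with the mean and SD of 3 (bars). Bcl2 and the nuclear RNAs are lower in asGM1+ than in asGM1- cells of Flt3L Panc02 tumours, and Siglech is lower in asGM1+ cells of both tumour types.

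Bcl2l1, which encodes BCL-XL, was lower in Flt3L Panc02 than in Panc02 tumours among asGM1- cells, where Bcl2 was higher. It stood at 58.1, 62.3 and 66.1 CPM in Flt3L Panc02 asGM1- libraries, against 87.1, 90.03 and 94.3 CPM in Panc02 asGM1- libraries, and these groups did not overlap. The log2 fold change was -0.54 ± 0.12 (SE; edgeR adjusted p = 0.0387). This call ended in all 6 runs that left out 1 library of either group (adjusted p = 0.0665 to 0.133), without a filter on low counts (0.0657) and without both Panc02 libraries numbered 1 (0.0778), while the fold change stayed between -0.59 and -0.50. In asGM1+ cells Bcl2l1 stood at 90.02, 74.4 and 73.7 CPM in Flt3L Panc02 and at 79.4, 77.7 and 102 CPM in Panc02 libraries, which overlapped. Between asGM1+ and asGM1- cells of Flt3L Panc02 tumours its log2 fold change was 0.35 ± 0.12 (95% confidence interval 0.08 to 0.62), with groups that did not overlap, and it did not pass by edgeR (adjusted p = 0.104). DESeq2 called that difference (adjusted p = 0.0453). The difference between its gate effects in the 2 tumour types was 0.42 ± 0.18 on the log2 scale (edgeR adjusted p = 0.298).

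Mcl1, which encodes a survival protein of short half-life, was not called in any comparison. It stood at 176, 228 and 184 CPM in Flt3L Panc02 asGM1+ libraries and at 163, 215 and 226 CPM in Flt3L Panc02 asGM1- libraries, which overlapped (log2 fold change -0.04, 95% confidence interval -0.34 to 0.26). In Panc02 tumours it stood at 149, 160.5 and 177 CPM in asGM1+ libraries, below all asGM1- libraries at 182, 199.7 and 194 CPM. That log2 fold change was -0.24 ± 0.14 (SE; 95% confidence interval -0.54 to 0.05; edgeR adjusted p = 0.606).

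Bcl2a1b is 1 of several nearly identical copies of the A1 gene on mouse chromosome 9, and counts of single copies depend on how reads were divided among them. Over aligned transcript bases Bcl2a1b and Bcl2a1d differed at 7 of 817 positions (99.1% identity), Bcl2a1a and Bcl2a1b at 15 of 817 (98.2%) and Bcl2a1a and Bcl2a1d at 10 of 819 (98.8%). The first 90 bases of the coding sequences are shown, 5′ to 3′, chosen because no stretch of that length held more differing positions. Capitals mark the 6 positions where any of the copies differ, to show how little separates their reads. These sequences are from the GENCODE vM21 transcripts.
Bcl2a1b: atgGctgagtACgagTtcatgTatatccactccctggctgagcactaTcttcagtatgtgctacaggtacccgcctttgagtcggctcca
Bcl2a1d: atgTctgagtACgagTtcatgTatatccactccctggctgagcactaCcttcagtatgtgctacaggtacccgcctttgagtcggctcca
Bcl2a1a: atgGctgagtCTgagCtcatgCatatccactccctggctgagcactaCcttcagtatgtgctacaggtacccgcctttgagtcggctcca
Bcl2a1b stood at 239.8, 244 and 321 CPM in Flt3L Panc02 asGM1+ libraries, against 238, 143 and 208 CPM in Flt3L Panc02 asGM1- libraries. In Panc02 tumours it stood at 196, 208 and 238 CPM in asGM1+ libraries and at 183, 254 and 278 CPM in asGM1- libraries. The Flt3L Panc02 asGM1+ libraries lay above the Flt3L Panc02 asGM1- libraries by a narrow gap, and the Panc02 groups overlapped. Its log2 fold change for the gate was 0.45 ± 0.20 (SE; 95% confidence interval 0.01 to 0.89; edgeR adjusted p = 0.190) in Flt3L Panc02 tumours and -0.16 ± 0.20 (adjusted p = 0.911) in Panc02 tumours. Bcl2a1d and Bcl2a1a gave 0.62 ± 0.21 (adjusted p = 0.0940) and 0.56 ± 0.21 (adjusted p = 0.114) for the gate in Flt3L Panc02 tumours. Bcl2a1b held 49.9% to 53.8% of the summed counts of Bcl2a1a, Bcl2a1b, Bcl2a1c and Bcl2a1d in each library, and Bcl2a1c was at most 0.374 CPM. The sum of the 4 copies, which does not depend on the division among them, stood at 481, 486 and 628 CPM in Flt3L Panc02 asGM1+, 452, 265 and 391 in Flt3L Panc02 asGM1-, 381, 407 and 464 in Panc02 asGM1+ and 354, 496 and 544 CPM in Panc02 asGM1- libraries. The sums of the Flt3L Panc02 groups did not overlap, and those of the Panc02 groups did.

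**Figure D4:**
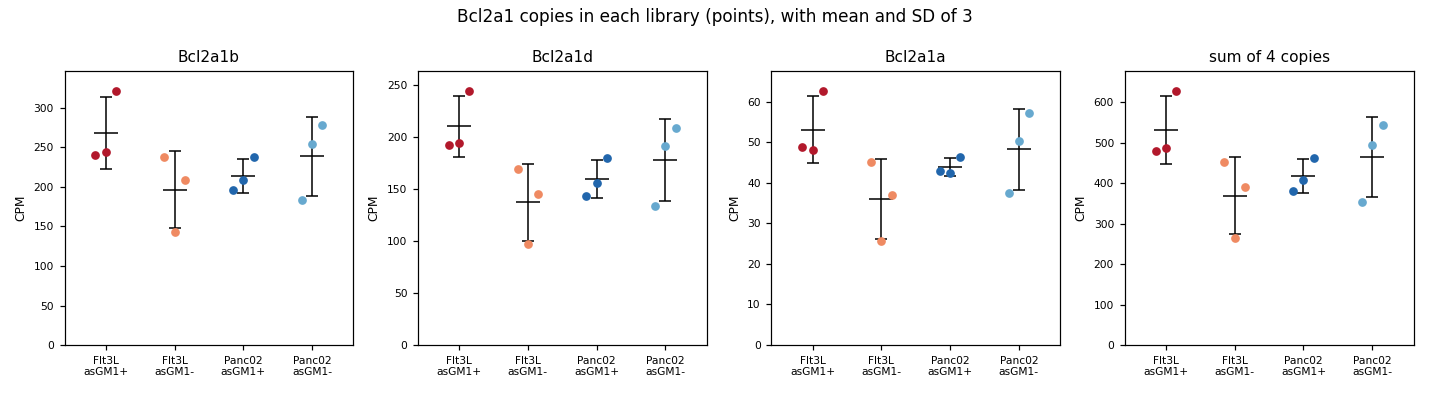
CPM (vertical axes, linear from 0) of Bcl2a1b, Bcl2a1d, Bcl2a1a and the sum of 4 copies in the 12 libraries (points), with the mean and SD of 3 (bars). The copies follow the same pattern over the libraries, with the sum at 481 to 628 CPM in Flt3L Panc02 asGM1+ and 265 to 452 CPM in Flt3L Panc02 asGM1- libraries.

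Of the pore-forming members, Bax was abundant and Bak1 was the lowest of the 10 genes per kilobase in every group. Bax stood at 180.0, 179.6 and 219.9 CPM in Flt3L Panc02 asGM1+, 183, 171 and 165 in Flt3L Panc02 asGM1-, 156, 150.3 and 177 in Panc02 asGM1+ and 140.4, 176 and 183 CPM in Panc02 asGM1- libraries. The asGM1+ libraries of Flt3L Panc02 tumours lay above those of Panc02 tumours, with a log2 fold change of 0.26 ± 0.12 (SE; edgeR adjusted p = 0.220), and no other pair of groups compared was free of overlap. Bak1 stood at 2.79, 3.04 and 4.89 CPM in Flt3L Panc02 asGM1+, 1.74, 2.17 and 2.34 in Flt3L Panc02 asGM1-, 2.56, 2.45 and 2.01 in Panc02 asGM1+ and 1.85, 3.21 and 1.34 CPM in Panc02 asGM1- libraries. The Flt3L Panc02 asGM1+ libraries were above those of Flt3L Panc02 asGM1- cells, by a log2 fold change of 0.78 ± 0.33 (95% confidence interval 0.06 to 1.49; edgeR adjusted p = 0.164), which did not pass. Replicate 3 of that group was the highest of the 12 for both Bax and Bak1.

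Among the BH3-only genes, Bcl2l11 was the most abundant, and none was called by edgeR. Bcl2l11 stood at 120.0, 137 and 107 CPM in Flt3L Panc02 asGM1+, 110.03, 116 and 119 in Flt3L Panc02 asGM1-, 93.9, 83.0 and 107 in Panc02 asGM1+ and 105, 98.3 and 95.1 CPM in Panc02 asGM1- libraries. The libraries of Flt3L Panc02 tumours were above those of Panc02 tumours within each gate, narrowly so in asGM1+ cells. Those log2 fold changes were 0.36 ± 0.12 (SE; 95% confidence interval 0.10 to 0.61; edgeR adjusted p = 0.0878) in asGM1+ and 0.21 ± 0.12 (95% confidence interval -0.04 to 0.46; adjusted p = 0.348) in asGM1- cells. In asGM1+ cells DESeq2 (adjusted p = 0.0244), limma-voom (0.00902) and edgeR without Panc02 asGM1+ replicate 3 (0.0404) called Bcl2l11 higher. Among named genes ranked in the same way, the closest to Bcl2l11 over the 12 libraries were Crlf3 (Pearson r = 0.911), Rftn1 (r = 0.906) and Sp100 (r = 0.896).

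Bbc3, which encodes PUMA, a target of p53, had wide intervals, as did Bak1. It stood at 4.57, 5.21 and 7.06 CPM in Flt3L Panc02 asGM1+, 4.05, 10.4 and 10.5 in Flt3L Panc02 asGM1-, 2.23, 2.89 and 3.71 in Panc02 asGM1+ and 5.20, 5.60 and 4.51 CPM in Panc02 asGM1- libraries. The Panc02 asGM1+ libraries were the 3 lowest of the 12 and overlapped neither the Flt3L Panc02 asGM1+ nor the Panc02 asGM1- libraries. For the gate in Panc02 tumours the log2 fold change was -0.80 ± 0.33 (SE; 95% confidence interval -1.53 to -0.06; edgeR adjusted p = 0.449). For Flt3L Panc02 over Panc02 tumours in asGM1+ cells it was 0.93 ± 0.34 (95% confidence interval 0.20 to 1.66; adjusted p = 0.116), and DESeq2 called it (0.0451). With all libraries, the log2 fold change for the gate in Flt3L Panc02 tumours was -0.56 ± 0.33 (edgeR adjusted p = 0.316). For Flt3L Panc02 over Panc02 tumours in asGM1- cells it was 0.70 ± 0.33 (edgeR adjusted p = 0.266). The groups overlapped in both of these comparisons. Flt3L Panc02 asGM1- replicate 1, at 4.05 CPM, lay apart from the other libraries of its group. Without it Bbc3 was called lower in asGM1+ cells of Flt3L Panc02 tumours (-0.89, edgeR adjusted p = 0.0481) and higher in asGM1- cells of Flt3L Panc02 than of Panc02 tumours (1.03, adjusted p = 0.0436).

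Pmaip1, which encodes NOXA, a partner of MCL-1, showed no separation of any 2 groups compared. It stood at 18.3, 16.3 and 10.99 CPM in Flt3L Panc02 asGM1+, 13.8, 17.5 and 16.9 in Flt3L Panc02 asGM1-, 13.3, 19.4 and 18.6 in Panc02 asGM1+ and 13.3, 17.7 and 16.8 CPM in Panc02 asGM1- libraries. Bid, which links death receptors to the mitochondria once an initiator caspase has cleaved it, stood at 63.4, 67.1 and 64.3 CPM in Flt3L Panc02 asGM1+, 62.9, 56.6 and 65.3 in Flt3L Panc02 asGM1-, 80.7, 69.0 and 61.9 in Panc02 asGM1+ and 60.7, 62.3 and 53.2 CPM in Panc02 asGM1- libraries. Every pair of groups compared overlapped for Bid too. The largest of its differences, asGM1+ over asGM1- cells in Panc02 tumours, was a log2 fold change of 0.26 ± 0.11 (SE; 95% confidence interval 0.02 to 0.51; edgeR adjusted p = 0.463).

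Counted over the 10 genes, groups did not overlap for 4 between asGM1+ and asGM1- cells in Flt3L Panc02 tumours, where this held for 28.7% of all genes, and for 2 in Panc02 tumours, where it held for 17.6%. Between Flt3L Panc02 and Panc02 tumours they did not overlap for 6 of 10 genes in asGM1+ cells, where this held for 30.7% of all genes, and for 3 of 10 in asGM1- cells, where it held for 26.6%. The 6 were Bcl2, Bcl2a1b, Bax, Bak1, Bcl2l11 and Bbc3, of which Bcl2 was lower and the other 5 higher in Flt3L Panc02 tumours, none of them called by edgeR. In that comparison edgeR called 6.25% of all genes. Of 14 T cell markers, 5 were called higher and 0 lower. Their sum was 16008 to 21556 CPM in Flt3L Panc02 and 12122 to 14333 CPM in Panc02 libraries. Of 12 macrophage and monocyte markers, 4 were called lower and 0 higher. Of 8 tested fibroblast and tumour epithelium markers, 3 were called lower and 1 higher, with a sum over 9 of 34.4 to 50.9 CPM in Flt3L Panc02 and 63.8 to 239.8 CPM in Panc02 libraries and Krt19 at 0 in all 6. The part of these cells in the values of the 6 genes was not tested.

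The level of BCL-2 relative to BIM, which it binds, is often used to describe how near a T cell is to death, and the transcripts allow that ratio to be written per kilobase. Bcl2 over Bcl2l11 was 0.663, 0.522 and 0.603 in Flt3L Panc02 asGM1+ libraries, against 1.64, 1.37 and 1.13 in Flt3L Panc02 asGM1- libraries. In Panc02 tumours it was 0.968, 1.06 and 0.883 in asGM1+ libraries and 0.937, 0.848 and 0.905 in asGM1- libraries. The order of the groups in this ratio was that of Bcl2 itself, with the Flt3L Panc02 groups at either end. Bcl2l1 over Bcl2l11 was 0.953 to 1.31 in Flt3L Panc02 asGM1+ and 0.924 to 0.973 in Flt3L Panc02 asGM1-, below Panc02 asGM1+ at 1.48 to 1.67 and Panc02 asGM1- libraries at 1.45 to 1.74. Mcl1 over Bcl2l11 lay between 3.45 and 4.79 in the 12 libraries, with overlap in each of the 4 comparisons. Ratios of transcripts are a description, and protein was not measured in the data used here. The absolute size of these ratios depends on the exon lengths used, while their order over the libraries does not.

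**Figure D5:**
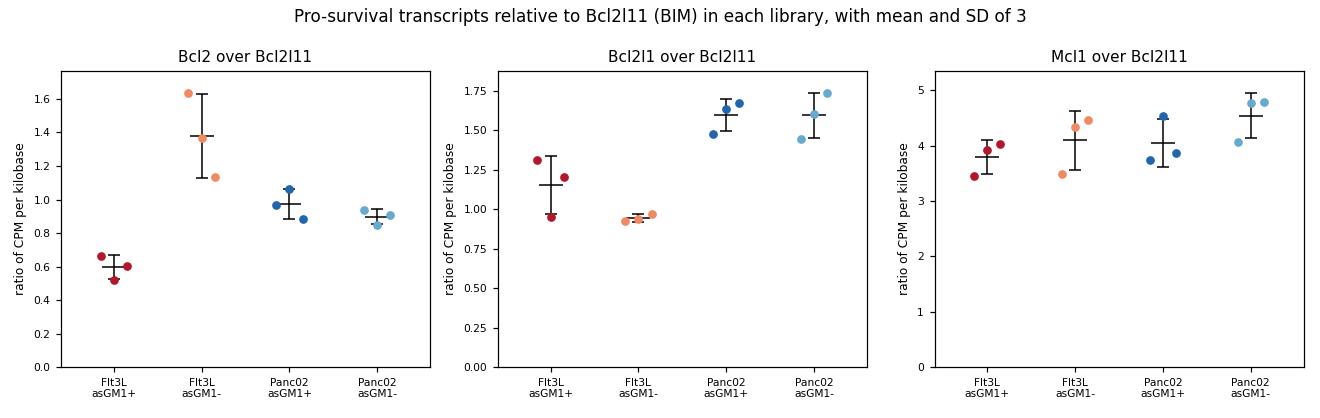
Ratios of Bcl2, Bcl2l1 and Mcl1 to Bcl2l11 in CPM per kilobase (vertical axes, linear from 0) in the 12 libraries (points), with the mean and SD of 3 (bars). Bcl2 over Bcl2l11 is 0.522 to 0.663 in Flt3L Panc02 asGM1+ and 1.13 to 1.64 in Flt3L Panc02 asGM1- libraries, and Bcl2l1 over Bcl2l11 is lower in both groups from Flt3L Panc02 tumours than in those from Panc02 tumours.

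Around the 10 genes, 4 further lists were read in the same model. Of 15 other BCL-2 family genes, 13 were tested and 0 were called by edgeR in any of the 5 comparisons, while 1 to 4 had an unadjusted p under 0.05, DESeq2 called 0 to 2 and limma-voom 0 to 2. Hrk was at 0 in every library, and Bcl2l10 was under the filter. Of the 18 genes of the apoptosome, the caspases it starts and their inhibitors, 2 were higher and 2 lower in asGM1+ than in asGM1- cells of Flt3L Panc02 tumours. In that comparison edgeR called 8.59% of all genes. Birc3 and Birc2, which encode the inhibitor proteins cIAP2 and cIAP1, were at log2 fold changes of -0.57 ± 0.11 (SE; edgeR adjusted p = 0.00965) and -0.41 ± 0.10 (adjusted p = 0.0323). The Birc2 call ended without replicate 2 or replicate 3 of either group, without a filter on low counts and when these 2 groups were fitted alone (adjusted p at most 0.142). The call of Birc3 ended only when these 2 groups were fitted alone (0.0593). Birc2 was also lower in Flt3L Panc02 than in Panc02 tumours, in asGM1- cells (-0.43 ± 0.10, adjusted p = 0.0454) and in asGM1+ cells (-0.46 ± 0.10, adjusted p = 0.0275), calls that ended without any 1 library of the compared groups in asGM1- cells (adjusted p at most 0.154) and without replicate 2 or 3 of Flt3L Panc02 or replicate 1 or 2 of Panc02 tumours in asGM1+ cells (at most 0.122). Both of these calls also ended without both Panc02 libraries numbered 1. The call in asGM1- cells ended too with upper quartile factors, without a filter on low counts and with a replicate block. The call in asGM1+ cells ended too when the compared groups were fitted alone.

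In the route from death receptors to Bid (12 genes), 1 gene was higher and 2 lower in asGM1+ cells of Flt3L Panc02 tumours. Of all genes, 8.59% were called there. Fasl, the ligand that T cells use to kill through Fas, averaged 233 ± 40.5 CPM in asGM1+ and 150.4 ± 8.27 CPM in asGM1- cells (SD, n = 3 each), with a log2 fold change of 0.63 ± 0.15 (SE; edgeR adjusted p = 0.0242). Fas, its receptor, averaged 12.6 ± 0.877 CPM in asGM1+ and 24.4 ± 4.86 CPM in asGM1- cells, a log2 fold change of -0.95 ± 0.24 (adjusted p = 0.0323), and Tnfrsf10b, the mouse receptor for TRAIL, was at -0.91 ± 0.25 (adjusted p = 0.0452). These calls ended when any 1 of the 6 libraries was left out (adjusted p at most 0.118), apart from Fasl without asGM1+ replicate 1 and Fas without asGM1- replicate 2. Those of Fas and Tnfrsf10b also ended without a filter on low counts, and those of Fasl and Tnfrsf10b when these groups were fitted alone. Fas was also lower in Flt3L Panc02 than in Panc02 tumours among asGM1+ cells (-0.92 ± 0.24, adjusted p = 0.0461), a call that ended without any 1 of the 6 libraries other than Panc02 asGM1+ replicate 3 (adjusted p at most 0.179). That call also ended with upper quartile factors, without a filter on low counts, without both Panc02 libraries numbered 1 and when these groups were fitted alone.

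Among 26 tested genes of the cytokine receptors, kinases and transcription factors upstream of the family (Ddit3 was under the filter), 2 were higher and 3 lower in asGM1+ cells of Flt3L Panc02 tumours. Of all genes, 8.59% were called there. Il7r, the receptor chain for interleukin 7, averaged 29.4 ± 3.50 CPM in asGM1+ and 81.6 ± 7.57 CPM in asGM1- cells (SD, n = 3 each), with a log2 fold change of -1.47 ± 0.17 (SE; edgeR adjusted p = 0.000669) that was called in all 15 other settings and left-out libraries. Foxo1, a transcription factor of resting T cells, was at -0.74 ± 0.15 (adjusted p = 0.0125) and Foxo3, its relative, at -0.65 ± 0.16 (adjusted p = 0.0292). Il2rb, the receptor chain shared by interleukins 2 and 15, averaged 3109 ± 309 CPM in asGM1+ and 1772 ± 415 CPM in asGM1- cells, a log2 fold change of 0.81 ± 0.19 (adjusted p = 0.0210). The Foxo1 call ended without asGM1+ replicate 3 or asGM1- replicate 2 (adjusted p at most 0.0555), that of Foxo3 without any 1 library other than asGM1- replicate 1 (at most 0.0924), and that of Il2rb without asGM1+ replicate 1 or 2 (at most 0.0677). The calls of Foxo3 and Il2rb also ended when these groups were fitted alone. Between Flt3L Panc02 and Panc02 tumours 1 gene was higher and 2 lower in asGM1- cells: Foxo3 at 0.77 ± 0.16 (adjusted p = 0.0269), Il2ra, the interleukin 2 receptor alpha chain, at -0.97 ± 0.18 (0.0159), and Nfkb2, a subunit of NF-kappaB, at -0.85 ± 0.12 (0.00731). The Foxo3 call ended without replicate 2 or 3 of Flt3L Panc02 asGM1- or replicate 1 or 2 of Panc02 asGM1- cells (adjusted p at most 0.119), that of Il2ra without Flt3L Panc02 asGM1- replicate 2 or Panc02 asGM1- replicate 2 or 3 (at most 0.0816), and that of Nfkb2 in none of 16 runs. This Foxo3 call also ended when the compared groups were fitted alone and without both Panc02 libraries numbered 1. In asGM1+ cells Pim2, a survival kinase, was higher at 0.93 ± 0.15 (adjusted p = 0.00755), a call that ended only when these 2 groups were fitted alone (0.0539). Over these 4 lists edgeR called 12 of 69 genes for the gate in Flt3L Panc02 tumours, against 8.59% of all genes. For tumour type it called 4 of 69 in asGM1- cells, against 3.7% of all genes. In asGM1+ cells it called 3 of 69, against 6.25% of all genes. For the gate in Panc02 tumours it called 0 of 69, against 0.892% of all genes. There 11 had an unadjusted p under 0.05, DESeq2 called 6 and limma-voom 9. For the difference of the gate effects edgeR called 0 of 69, against 0.367% of all genes. There 18 had an unadjusted p under 0.05, DESeq2 called 3 and limma-voom 2.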

How the data were processed

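TRIzol extraction and 2 library kits, TruSeq mRNA and SMARTer Ultra low input, are given per the labels' protocols. Which kit was used for which library is not stated, so whether the kits differ between groups cannot be checked. Strand is not stated, so reads of a gene and of an antisense or overlapping neighbour cannot be separated. HISAT2, StringTie and mm39 are named in the submitters' processing notes, with no versions. The deposited values are estimated counts (expected counts) per gene, already whole numbers. Low values stepped by about 2.69 counts (2.67 to 2.71 did as well), taken as 1 fragment. The floor of 3 fragments covers counting error only, and confidence intervals are from the edgeR fit over libraries.

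The tests used edgeR 4.0.16 (R 4.3.3) with TMM scaling, the filterByExpr filter by group, and a single quasi-likelihood fit to all 12 libraries, with a mean for each of the 4 groups. The fit was also run on simulated counts drawn independently for each library, a simpler setting than these data. No result here rests on that run. SE is the unshrunk log2 fold change over the square root of F. Lengths per kilobase are union exons of GENCODE vM21. DESeq2 1.42.0 and limma 3.58.1 (voom with quality weights) were alternatives, beside other scaling factors, filters, count scale, libraries left out and a replicate block. All 10 genes are described, and at most 4 called genes per other list and comparison, those of lowest p, are named. A few such genes are counted but not reported by name. For the likeness to Bcl2 and Bcl2l11, genes of at least 5 CPM on average were used, with 0.5 CPM added before logs. Genes known only by a gene model or clone name were left out there. The 10 genes, the lists and the tests were chosen with earlier results of these data known.

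In Panc02 tumours libraries of the same number deviated together (correlations of deviations from group means 0.397, 0.360 and 0.367), so the numbers may pair the gates there. The other comparisons did not meet this.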

Additional observations from a re-analysis of the deposited data

Results flagged for a closer look

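The gate effect of Bcl2 differed between the tumour types: the log2 fold change of asGM1+ over asGM1- cells was -1.14 in Flt3L Panc02 and 0.03 in Panc02 tumours, a difference of -1.17 by the edgeR test of the difference itself (adjusted p = 0.0238). Leaving out 1 library ended this call in 7 of 12 runs, with adjusted p at most 0.0985. No explanation was tested.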

How the results depend on the processing

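Of 835 recomputed values of the 10 genes, 777 kept direction and side of the threshold, 17 lost a call, 9 gained one and 32, none called, changed sign. By DESeq2 2 genes were called for the gate in Flt3L Panc02 tumours (Bcl2, Bcl2l1) and 2 for tumour type in asGM1+ cells. Limma-voom called 2 (Bcl2, Bbc3) and 1 there, and 3 for tumour type in asGM1- cells. For tumour type in asGM1- cells 1 was called without a filter and 1 without both Panc02 libraries numbered 1, which left 0 for the difference of gate effects. Leaving out 1 library gave 1 to 2 calls for the gate in Flt3L Panc02 tumours, 0 to 2 and 0 to 1 for tumour type in asGM1- and asGM1+ cells, and 0 to 1 for the difference.

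Signs changed without both Panc02 libraries numbered 1 for Bak1 by gate in Panc02 tumours (-0.028), and for Bax (-0.051) and Pmaip1 (-0.11) by tumour type in asGM1- cells. In those cells they changed with the compared libraries alone for Pmaip1 (-0.013), and by limma-voom for Bax (-0.032) and Bak1 (0.0083), as for Bbc3 in the difference of gate effects (-0.028). The cause was not tested. Leave-one-out log2 fold changes that crossed 0 were, for the gate in Panc02 tumours, -0.018 to 0.11 for Bcl2, -0.21 to 0.0065 for Bcl2l1, -0.18 to 0.013 for Bcl2l11, -0.15 to 0.028 for Bax, -0.11 to 0.56 for Bak1 and -0.011 to 0.26 for Pmaip1. For the gate in Flt3L Panc02 tumours they were -0.17 to 0.054 for Mcl1, -0.018 to 0.16 for Bcl2l11 and -0.23 to 0.11 for Pmaip1. For tumour type in asGM1- cells they were -0.024 to 0.20 for Mcl1, -0.051 to 0.13 for Bax, -0.28 to 0.39 for Bak1 and -0.11 to 0.11 for Pmaip1. In asGM1+ cells they were -0.22 to 0.035 for Bcl2l1 and -0.33 to 0.033 for Pmaip1, and for the difference -0.10 to 0.45 for Bbc3 and -0.34 to 0.032 for Pmaip1.

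With the replicate block Bcl2 was at -1.13 for the gate in Flt3L Panc02 tumours (edgeR adjusted p = 0.000766), 0.82 for tumour type in asGM1- cells (0.00764) and -1.17 for the difference (0.0209), Bcl2l1 was at -0.54 for tumour type (0.0487), and the block changed no call of the 10 genes. Same-number correlations were 0.0783, 0.554 and -0.0484 for the gate in Flt3L Panc02 tumours, and -0.429 to 0.0554 for tumour type. Over all genes, calls ranged over the settings from 94 to 831 for the gate in Panc02 tumours, 768 to 3215 for the gate in Flt3L Panc02 tumours, 94 to 3536 and 1 to 3120 for tumour type in asGM1- and asGM1+ cells, and 1 to 864 for the difference. With 3 libraries a group, Bak1 and Bbc3, at a few CPM, have the least precise values.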
